A study of Mus musculus with 12 samples.

Results

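The comparison described here is the effect of 80%TCM on CD8+ T cells kept with IL-2, across all expressed genes. It rests on 6 of the 12 libraries of the series, which the labels assign to the treatments IL-2 (3 libraries) and IL-2 80%TCM (3 libraries). The cells of both groups came from splenocytes of C57BL/6 mice, both groups received IL-2, and the labels give no age, dose or duration. TCM is not spelled out in the labels; the series title mentions tumor-like conditions. The other 6 libraries hold the same cells with IL-12, with or without 80%TCM. Whether the 3 libraries of each group stem from different mice or cultures is not stated, so p-values reflect only the spread among these samples, possibly technical.

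CD8+ T cells are the lymphocytes that recognise and kill infected or malignant cells, and IL-2 drives their growth and survival through STAT5. Proliferating T cells build membranes and therefore balance cholesterol synthesis, which the transcription factor SREBP-2 turns on when sterols are low, against cholesterol export, which the nuclear receptor LXR turns on when oxysterols are high. T cells also respond to TGF-beta, which induces the integrin subunit encoded by Itgae, and to low oxygen, which raises glycolytic genes through HIF-1.

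Each library held 19641227 to 26007717 counts on genes, and levels below are CPM, counts relative to a fixed total per library, with library sizes scaled by TMM. The libraries carried the markers of their labelled cell type: Cd8a was at 813 to 963 CPM with IL-2 and at 1007 to 1111 CPM with 80%TCM, and Cd3e at 271 to 366 CPM in all 6. Of the markers of other cells, those of platelets and megakaryocytes had a summed level of 133 to 159 CPM with IL-2 and of 56.2 to 73.9 CPM with 80%TCM. The helper T cell gene Cd4 was at 1.15 to 1.25 CPM with IL-2 and at 2.76 to 4.55 CPM with 80%TCM. The B cell genes Ms4a1 and Pax5 were at no more than 0.319 CPM, although the immunoglobulin gene Ighm was at 287 to 775 CPM. The myeloid gene C1qa was at 0, but the myeloid and dendritic cell markers summed to as much as 28.9 CPM with IL-2 and 30.7 CPM with 80%TCM. Markers of stromal and epithelial cells had a summed level of 133 to 142 CPM with IL-2 and of 126 to 154 CPM with 80%TCM. Replicate 3 of both groups stood apart from replicates 1 and 2. Between replicates 1 and 2 of a group, chi-square per degree of freedom was 2.46 and 4.37, and in pairs that include replicate 3 it was 28.5 to 45.4, where a value of 1 is counting error alone. Of 15897 genes tested, 289 were at least 1 log2 unit higher and 34 at least 1 log2 unit lower in replicate 3 than in replicates 1 and 2 in both groups. For this reason the level in each library is printed for the main genes, and beside many of the lists the counts without replicate 3 of both groups, or with a block for the replicate number, are given.

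With 80%TCM, genes of cholesterol synthesis rose together, the cholesterol exporters Abca1 and Abcg1 were among the 15 named genes with the lowest fold changes, genes of DNA replication and mitosis fell by small amounts, and several targets of TGF-beta fell. Of 15897 genes tested, 2313 (14.5%) passed an adjusted p of 0.05 in edgeR's quasi-likelihood test with Benjamini-Hochberg adjustment, 1070 of them higher (6.73% of all tested) and 1243 lower (7.82%). Most changes were small: the median absolute log2 fold change of the called genes was 0.44, and 433 rose and 381 fell at least 1.5-fold. The median log2 fold change over all genes tested was 0.00, and the median standard error was 0.12. The values of the 2 groups did not overlap for 2234 of the called genes, against 27.4% of all genes tested. The calls were made on these same values, so that choice itself favours groups that do not overlap.

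**Figure D1:**
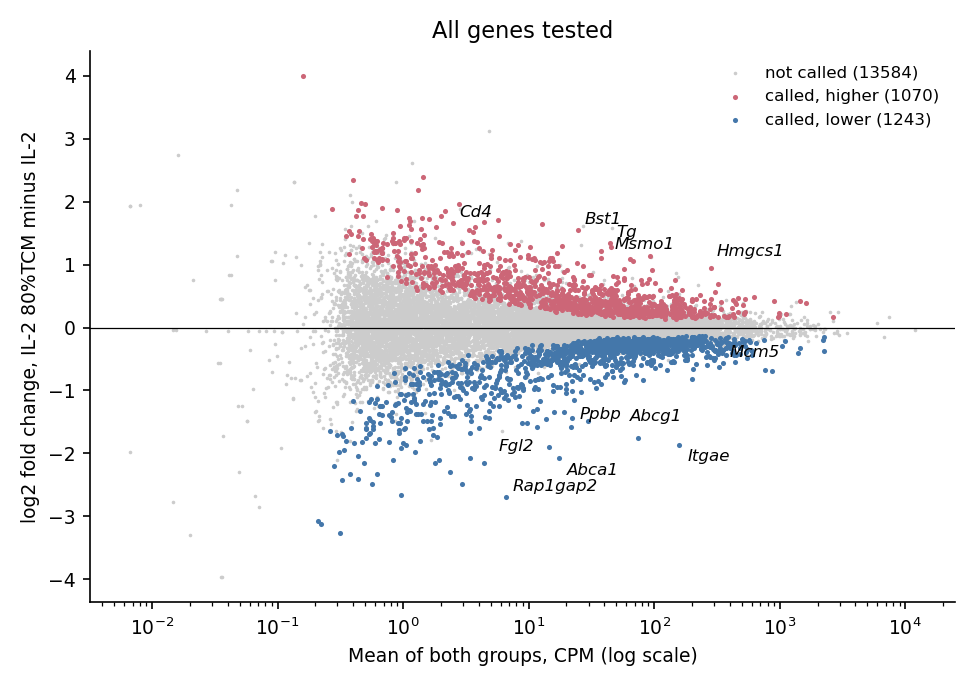
Log2 fold change of IL-2 80%TCM against IL-2 (y axis) against the mean level of both groups in CPM (x axis, log scale), with 1 point per gene tested. The 1070 genes called higher and 1243 called lower are coloured, and Rap1gap2 (-2.70), Abca1 (-2.08) and Abcg1 (-1.75) lie at the low end.

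The same-numbered pairs can be set beside each other as a description, since the calls were made on these same libraries and that choice itself favours pairs with the same sign. Of the 2313 called genes, 2307 differed in the same direction in all 3 same-numbered pairs, against 51.7% of all genes tested, and in 6 the pair of replicates 3 went the other way. Across the called genes, the log2 difference of pair 3 had a correlation of 0.89 with the mean of pairs 1 and 2, and pair 1 had a correlation of 0.90 with pair 2. Over all genes tested these values were 0.51 and 0.48. They are correlations across genes of the same libraries, and genes are not independent replicates. Without replicate 3 of both groups 3936 genes were called (24.7%), with 2098 of the 2313 among them in the same direction, and a block for the replicate number gave 4442 calls (27.9%), with 2311 of the 2313 among them. List counts below are to be read against the shares of all genes called higher and lower. These were 6.73% and 7.82% with all libraries, 12.3% and 12.4% without replicate 3, and 14% each way with the block. With the 6 IL-2 libraries alone, where the IL-12 libraries add nothing to the estimate of the spread, 587 genes were called (3.81% of those tested there). This fit lowered many of the list counts below. With it 20 cholesterol synthesis genes were called higher, and 9 of DNA replication and 6 of mitosis lower. Of the cytokine receptors 1 was called, and of the CD8, CD3 and T cell receptor signalling genes 0. Many genes described below as rising or falling did not pass in this fit (adjusted p = 0.062 to 0.18 in edgeR for those named next). Among them were Tyms, Cd81, Tspoap1, Foxo1, Il12rb2, Srebf2, Lss, Srebf1, Acsl3, Odc1, Pfkfb3 and Rora. Runx1, Il4ra, Cd38, Rasgrp2, Cdkn2c, Ltb, Fasl, Mki67 and Klrk1 did not pass either, and the naming is not complete.

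**Figure D2:**
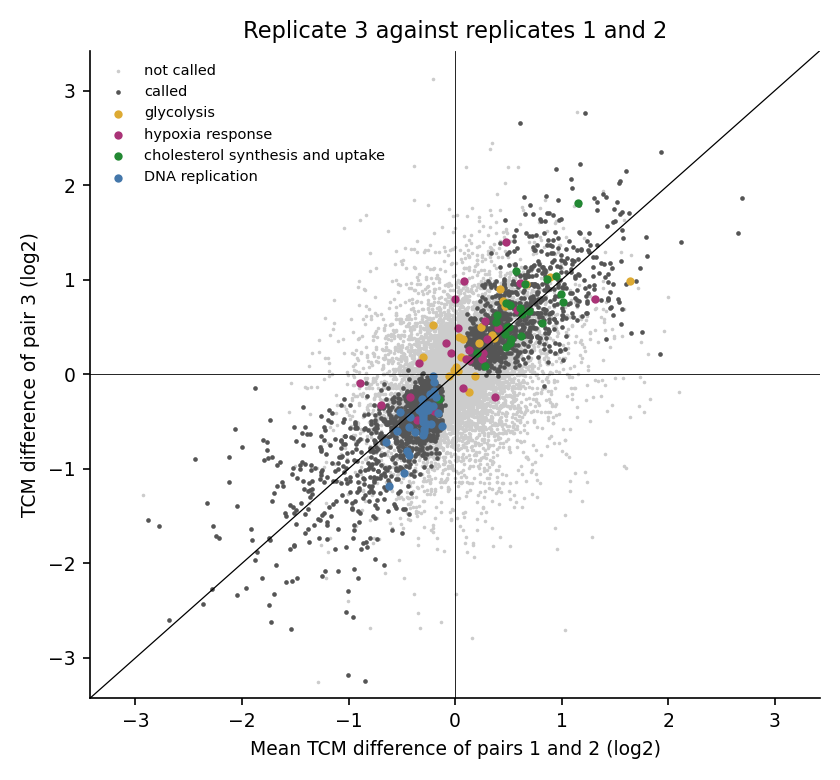
Log2 difference between IL-2 80%TCM and IL-2 in the pair of replicates 3 (y axis) against the mean of the pairs of replicates 1 and 2 (x axis), with 1 point per gene tested and 4 gene groups coloured. Called genes lie near the diagonal line of equal differences (r = 0.89), while members of the glycolysis and hypoxia groups scatter on both sides of it.

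Cholesterol synthesis and uptake rose nearly as a whole. Of 25 listed genes, all tested, 24 rose and 1 fell, with a median log2 fold change of 0.57 against 0.00 over all genes. Hmgcs1, which makes HMG-CoA, was at 172, 188 and 221 CPM with IL-2 and at 361, 355 and 397 CPM with 80%TCM, a log2 fold change of 0.94 ± 0.08 (SE; adjusted p = 1.9e-05). Idi1, an isomerase of the isoprenoid steps, was at 38.5, 38.6 and 39.7 CPM against 65.2, 71 and 57.6 CPM (0.73 ± 0.07, adjusted p = 5.1e-05). Msmo1, a sterol methyl oxidase late in the pathway, had the smallest p of the group, with 67, 67.6 and 66.8 CPM against 118, 127 and 134 CPM (0.91 ± 0.05, adjusted p = 9.8e-07). In all 3 genes every library with 80%TCM lay above every library without it, in replicate 3 as in replicates 1 and 2.

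Genes of feedback rose as well. Insig1, which holds SREBP back in the endoplasmic reticulum and is itself an SREBP target, rose from 103, 119 and 100 CPM to 175, 168 and 156 CPM (log2 fold change 0.63). Srebf2, which encodes SREBP-2, rose from 462, 469 and 515 CPM to 532, 541 and 602 CPM (0.21 ± 0.06, adjusted p = 0.025). Lss, which closes the sterol rings, was the only member that rose with overlapping groups, at 65.7, 66.5 and 83.2 CPM against 91, 83 and 128 CPM, and replicate 3 was its highest library in both groups. The member that fell was Ebp, a sterol isomerase, at 50.8, 51.9 and 54.1 CPM against 43.6, 49.2 and 45.1 CPM (-0.19 ± 0.06, adjusted p = 0.044), and it was not called without replicate 3 (adjusted p = 0.098, with 0.013 to 0.2 over its 20 alternatives). The median of the list was 0.58, 0.53 and 0.63 in pairs 1 to 3, and 24 members were called higher without replicate 3 and with the block. Cyp51 and Fdft1, both in the list, overlap expressed genes on the other strand (Akap9 and Ctsb), and whether the counting used strand is unknown here.

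Promoter windows of 3 of these genes are shown because the list moved as a unit and its genes are textbook targets of SREBP-2 acting with NF-Y. They were taken from RefSeq on GRCm38.p6. Only called members with 1 start in the table and a match to the letters below were eligible, and those with the smallest p are shown. That each window holds a match was therefore fixed by the choice. Msmo1 lies at chr8:64733609-64733728 (minus strand), Hmgcs1 at chr13:119690211-119690330 (plus strand) and Cyp51 at chr5:4104702-4104821 (minus strand), each 120 bases long and upstream of the start. Capitals mark matches to the sterol regulatory element core TCACNCCAC or the NF-Y box CCAAT on either strand.
Msmo1: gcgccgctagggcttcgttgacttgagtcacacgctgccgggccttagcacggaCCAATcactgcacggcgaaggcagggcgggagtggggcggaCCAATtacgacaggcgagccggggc
Hmgcs1: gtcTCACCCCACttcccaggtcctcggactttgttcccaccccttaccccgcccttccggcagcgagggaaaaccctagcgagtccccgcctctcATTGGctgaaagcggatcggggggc
Cyp51: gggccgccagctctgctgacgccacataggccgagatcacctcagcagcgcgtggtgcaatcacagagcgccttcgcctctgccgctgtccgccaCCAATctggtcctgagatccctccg
The CCAAT box stood in the 250 bases upstream of the start in 16 of the 17 members present in the promoter table (94.1%), against 37.5% of 27025 genes in that table and 40.2% of those tested. It was also frequent in other lists described below, in 8 of 13 promoters of cholesterol export and LXR targets (61.5%) and 18 of 30 of DNA replication (60%). An LXR direct repeat stood in 0 of those 13 promoters and in 0 of 10291 promoters of tested genes, so this search cannot tell the lists apart. TCACNCCAC stood in 1 of the 17 (5.88%), the Hmgcs1 promoter, against 1.22% of all genes and 2 of 22 glycolysis promoters (9.09%). A match is a description of the letters and not a measured binding site.

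Cholesterol export went the other way. Abca1, which loads cholesterol onto apolipoprotein A-I, was at 25.4, 28.5 and 30.1 CPM with IL-2 and at 7.03, 6.68 and 6.22 CPM with 80%TCM (log2 fold change -2.08 ± 0.09, adjusted p = 9.8e-08). Abcg1, its partner for export to high-density lipoprotein, was at 126, 116 and 104 CPM against 34.9, 37.5 and 30.8 CPM (-1.75 ± 0.09, adjusted p = 2.1e-07). Mylip, a ubiquitin ligase gene and LXR target, was at 20.7, 20.3 and 21.3 CPM against 11, 11.5 and 8.53 CPM (-1.01 ± 0.10, adjusted p = 8.2e-05). The groups lay far apart in all 3 genes, in replicate 3 as in the others.

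The fourth member that fell was Arl4c, a small GTPase gene induced by LXR, from 202, 206 and 233 CPM to 152, 145 and 148 CPM (-0.52). The list of export genes and LXR targets did not move as a unit: of 15 tested members, 4 fell and 2 rose, with a median of -0.05. The members that rose were Abca7, a lipid transporter, from 167, 179 and 169 CPM to 236, 224 and 232 CPM (0.42), and Smpdl3a, a secreted phosphodiesterase, from 42.3, 39.5 and 42.1 CPM to 56.5, 62.9 and 55.3 CPM (0.50). Rxra, the partner receptor of LXR, was among the 15 lowest log2 fold changes of called genes with at least 10 CPM and no overlap, from 15.7, 16.8 and 13.8 CPM to 7.27, 6.79 and 4.51 CPM (-1.32 ± 0.17, adjusted p = 3.4e-04). Without replicate 3, 4 members of the list were called higher and 5 lower, and with the block 4 and 6.

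Of 18 fatty acid synthesis genes tested, 1 rose and 1 fell, with a median of 0.07. Srebf1, which encodes SREBP-1 and is an LXR target, fell from 198, 210 and 238 CPM to 166, 171 and 197 CPM (-0.28), and Acsl3, an acyl-CoA synthetase, rose from 24.3, 24.2 and 21.1 CPM to 29.6, 28.7 and 28.6 CPM (0.32). Without replicate 3 and with the block, 4 members were called higher and 1 lower. Of 19 fatty acid oxidation genes, 5 rose and 2 fell (median 0.10), among them Cpt1a, which carries acyl chains into mitochondria, from 135, 133 and 121 CPM to 184, 180 and 156 CPM (0.42).

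**Figure D3:**
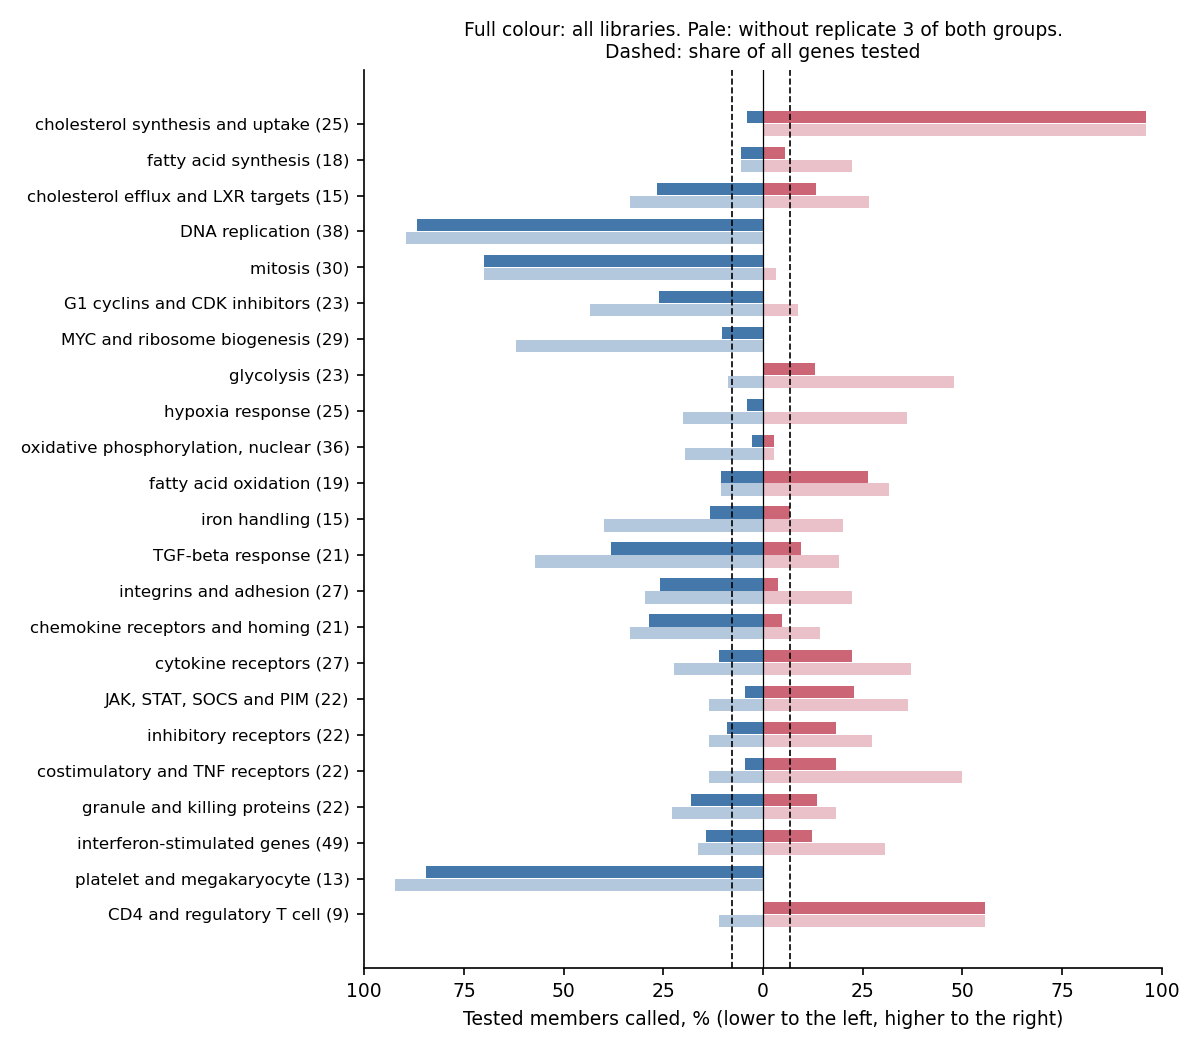
Share of tested members called higher (right) and lower (left) with 80%TCM, in percent, for each gene list, with the number tested in brackets. Full colour shows the fit with all libraries and pale colour the fit that leaves replicate 3 out of both groups, and dashed lines mark the 6.73% and 7.82% of all genes called higher and lower. Cholesterol synthesis, DNA replication, mitosis and platelet genes extend farthest past the lines.

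Genes of the dividing cell fell. Of 38 DNA replication genes, all tested, 33 fell and 0 rose, with a median log2 fold change of -0.34, and of 30 mitosis genes 21 fell and 0 rose, with a median of -0.28. Mcm5, a subunit of the replicative helicase, was at 441, 421 and 400 CPM with IL-2 and at 298, 294 and 263 CPM with 80%TCM (-0.56 ± 0.06, adjusted p = 9.2e-05). Cdc6, which loads that helicase, was at 72.3, 64.8 and 59.8 CPM against 44.7, 42.4 and 36.4 CPM (-0.67 ± 0.08, adjusted p = 2.4e-04). Tyms, which makes thymidylate, had the largest fall of the list, from 99, 91.4 and 79.5 CPM to 63.1, 60.9 and 35 CPM (-0.76 ± 0.16, adjusted p = 0.0076). In Tyms replicate 3 was the lowest library of each group. In bulk RNA, fewer dividing cells and less of these transcripts per cell cannot be told apart.

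Mitotic genes are abundant in dividing T cells. Top2a, which untangles chromosomes, was at 1574, 1501 and 1740 CPM against 1281, 1212 and 1131 CPM (-0.41), and Mki67, the proliferation marker, at 1589, 1525 and 1739 CPM against 1409, 1292 and 1163 CPM (-0.33). In both genes replicate 3 was the highest library with IL-2 and the lowest with 80%TCM. The median of the mitosis list was -0.19, -0.15 and -0.48 in pairs 1 to 3, and that of the replication list -0.28, -0.27 and -0.41. Without replicate 3 of both groups, 34 replication genes were called lower, and of the mitosis genes 21 were called lower and 1 higher. Over all alternatives the number called lower ranged from 9 to 37 of the replication genes and from 6 to 25 of the mitosis genes.

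Some regulators of S phase entry fell as well. Of 23 tested G1 cyclins, their kinases, inhibitors and E2F genes, 6 fell and 0 rose, with a median of -0.11. E2f8, a repressor that E2F itself induces, fell from 75.4, 72.8 and 72.9 CPM to 55.4, 51.9 and 44 CPM (-0.55), and Ccne2, a cyclin of S phase entry, from 25.8, 27.9 and 28.2 CPM to 18.8, 19.6 and 15.2 CPM (-0.62). Cdkn2c, an inhibitor of CDK4 and CDK6, also fell, from 68, 69.4 and 65 CPM to 51.2, 46.4 and 32.5 CPM (-0.64). Without replicate 3, 2 members of this list were called higher and 10 lower, and with the block 2 and 7.

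Promoter windows of 3 replication genes are shown because the list moved in 1 direction and its genes are known E2F targets. They were chosen as above, only among members with a match to the E2F letters, so that each window holds a match was fixed by the choice. Mcm5 lies at chr8:75109268-75109387 (plus strand), Cdc6 at chr11:98907921-98908040 (plus strand) and Orc1 at chr4:108579334-108579453 (plus strand), also on GRCm38.p6 from RefSeq. Capitals mark matches to the E2F letters TTTNGCGC or TTTNCCGC on either strand, a motif chosen after seeing the data. In Mcm5 the capitals hold overlapping matches on both strands.
Mcm5: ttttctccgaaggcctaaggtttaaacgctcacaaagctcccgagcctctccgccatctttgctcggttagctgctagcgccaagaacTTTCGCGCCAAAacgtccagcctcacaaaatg
Cdc6: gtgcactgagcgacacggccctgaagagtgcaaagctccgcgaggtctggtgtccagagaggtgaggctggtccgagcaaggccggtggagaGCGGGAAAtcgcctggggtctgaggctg
Orc1: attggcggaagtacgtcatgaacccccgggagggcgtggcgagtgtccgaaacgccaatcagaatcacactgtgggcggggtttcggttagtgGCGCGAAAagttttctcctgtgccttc
These letters stood in 9 of 30 replication promoters (30%), against 3.34% of all 27025 promoters and 5.59% of those of tested genes, and in 1 of 25 mitosis promoters. The CCAAT box stood in 19 of the 25 mitosis promoters.

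MYC targets and ribosome biogenesis genes depended on replicate 3. Of 29 members tested, 3 fell and 0 rose, with a median of -0.15, against 7.82% of all genes called lower. Without replicate 3, 18 were called lower, against 12.4% of all genes in that fit, and with the block 13, against 14%. The pair medians were -0.16, -0.31 and 0.01. Odc1, the first enzyme of polyamine synthesis, fell from 159, 165 and 135 CPM to 128, 119 and 113 CPM (-0.35). Myc itself was at 82.6, 87.8 and 97.2 CPM against 73.8, 82.2 and 98.2 CPM and was not called (-0.07 ± 0.09, adjusted p = 0.63).

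Iron is taken up through the transferrin receptor and stored in ferritin. Tfrc, the transferrin receptor, fell from 383, 370 and 436 CPM to 275, 270 and 223 CPM (-0.63 ± 0.09, adjusted p = 5.5e-04). Ftl1, the ferritin light chain, fell from 129, 125 and 120 CPM to 78, 72.7 and 89.1 CPM (-0.64). Fbxl5, an iron sensor that degrades iron regulatory proteins, rose from 65.5, 63.4 and 70 CPM to 104, 109 and 113 CPM (0.71 ± 0.05, adjusted p = 6.4e-06). Its exons overlap those of Bst1 on the opposite strand, which also rose, so the counts of these genes may share reads. Of 15 tested members 1 rose and 2 fell (median -0.08), against 14.5% of all genes called. Without replicate 3 the counts were 3 and 6, and with the block 2 and 4.

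Glycolysis and hypoxia genes were where replicate 3 weighed most. In replicate 3 the summed level of 23 glycolysis genes was 22339 CPM with IL-2 and 25382 CPM with 80%TCM, against 7879 to 8549 CPM in the other 4 libraries. The median shift of replicate 3 was 1.19 and 1.26 log2 units without and with 80%TCM, and 21 of the 23 were higher in it in both groups. Over 25 tested hypoxia genes the shift was 1.16 and 1.5, and 23 were higher in both groups. The median log2 fold change of 80%TCM was 0.24 over the glycolysis list and 0.21 over the hypoxia list.

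Of the glycolysis genes 3 rose and 0 fell. Eno3, the muscle-type enolase, rose with only a small shift of replicate 3, from 40.9, 41.8 and 36.7 CPM to 77.3, 75.8 and 74.8 CPM (0.93 ± 0.07, adjusted p = 1.2e-05). Pfkfb3 and Pfkfb4, which make the activator of phosphofructokinase, rose by 0.35 and 0.80 on the log2 scale, at 43.5, 43.1 and 49.5 against 50.6, 52 and 70.2 CPM for Pfkfb3. Ldha, lactate dehydrogenase, was at 883, 903 and 1956 CPM against 856, 914 and 2019 CPM, so that the same-numbered libraries lay close together (0.02 ± 0.32). Slc2a3, a glucose transporter, was at 131, 131 and 250 CPM against 175, 175 and 464 CPM, higher with 80%TCM in every pair but not called with all libraries (adjusted p = 0.2, with 3.5e-19 to 0.89 over its 20 alternatives and 1.3e-06 with the block). Of the hypoxia genes 1 fell and 0 rose, namely Rora, a nuclear receptor, from 20.2, 19.4 and 26.4 CPM to 14.6, 16.3 and 18.9 CPM (-0.40).

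Without replicate 3 the counts changed. Then 11 glycolysis genes were called higher and 2 lower, and 9 hypoxia genes higher and 5 lower, against 12.3% and 12.4% of all genes called in each direction. With the block the counts were 11 and 1 for glycolysis and 14 and 4 for hypoxia, against 14% of all genes in each direction. Over all alternatives the glycolysis median ranged from -0.44 to 0.82 and that of hypoxia from -0.49 to 0.84, with the negative values without IL-2 80%TCM replicate 3, that is with replicate 3 kept in the IL-2 group alone.

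Aldoc and Vegfa show the pattern. Aldoc, an aldolase, was at 12.4, 16.1 and 150 CPM with IL-2 and at 41.3, 47.6 and 298 CPM with 80%TCM. Every library with 80%TCM was higher than its same-numbered partner, but the groups overlapped and the gene was not called (1.12 ± 0.83, adjusted p = 0.41). With replicate 3 left out the log2 fold change was 1.64 (adjusted p = 9.8e-12), with the block the adjusted p was 2.7e-09, and over 19 alternatives it lay from 2.1e-47 to 0.76. Vegfa, the vascular growth factor, was at 2.42, 3.26 and 32.9 CPM against 7.03, 7.12 and 57.2 CPM and was likewise called only without replicate 3 (7.1e-07), with the block (7.1e-07) and in 3 further alternatives, with 2.2e-13 to 0.82 over all 19.

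**Figure D4:**
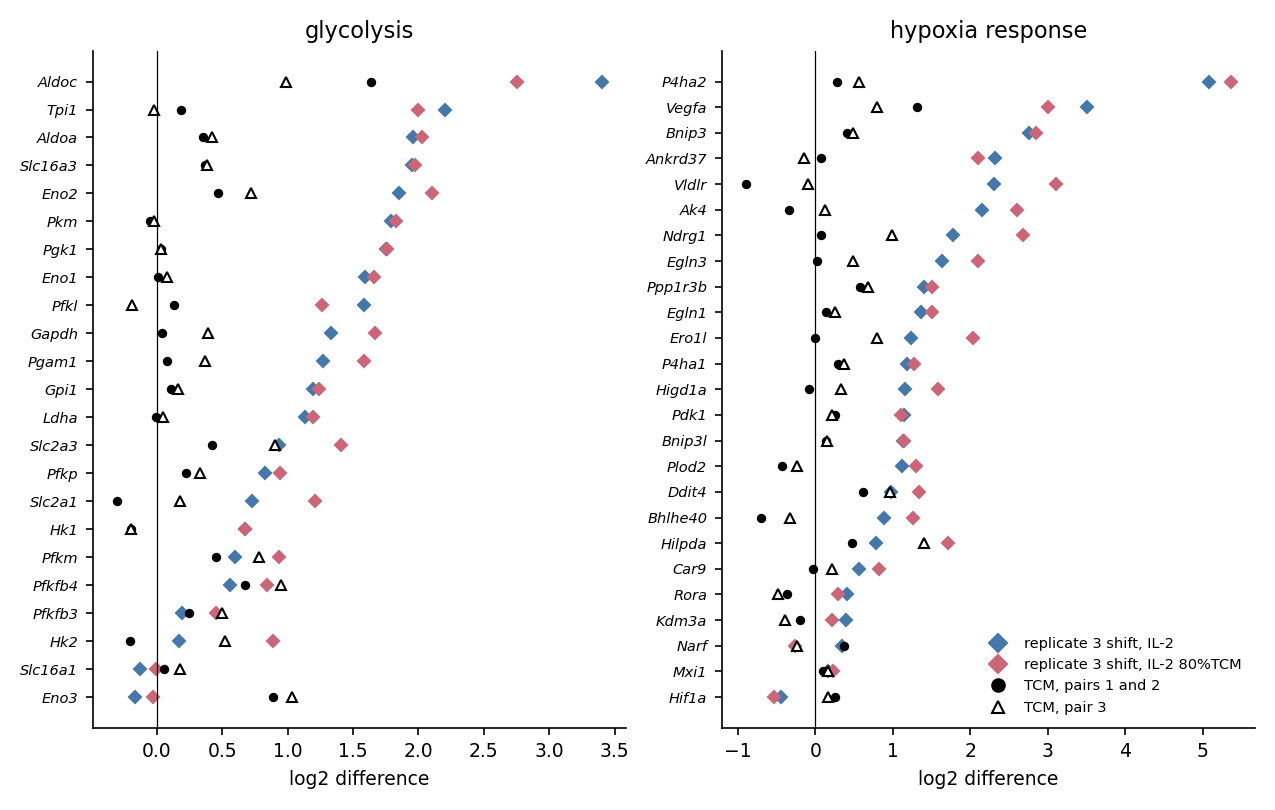
Log2 differences for the tested genes of glycolysis (left) and hypoxia response (right), 1 row per gene. Diamonds are the shift of replicate 3 against replicates 1 and 2 within IL-2 and within IL-2 80%TCM, filled circles the mean difference of 80%TCM in pairs 1 and 2, and open triangles that in pair 3. Most diamonds lie right of 0, with medians of 1.19 and 1.26 for glycolysis, while circles and triangles lie nearer 0.

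Other genes shared this split. Mt1, a metallothionein, was at 80.6 and 81.2 CPM in replicates 1 and 2 with IL-2 and at 29.8 and 37.3 CPM with 80%TCM, but at 138 and 163 CPM in replicates 3, so the direction turned in pair 3. It was not called with all libraries (-0.38 ± 0.46, adjusted p = 0.64), and was called with the block (0.0046, with 1.5e-11 to 0.99 over its 20 alternatives). Bhlhe40, a transcription factor of effector T cells, was lower with 80%TCM in every pair, at 116, 121 and 220 CPM against 70.3, 75.8 and 175 CPM, and Ddit4, an inhibitor of mTORC1, higher in every pair, at 81.3, 90.6 and 169 CPM against 128, 135 and 331 CPM. Neither passed the test with all libraries (adjusted p = 0.29 and 0.12), and both did with the block (5.2e-07 and 8.2e-09), with 2.0e-10 to 0.75 and 1.4e-26 to 0.5 over 20 alternatives each.

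Some calls were lost without replicate 3: of the 2313 called genes, 2098 were also called without it in the same direction. Among the called genes the 6 with the largest adjusted p without replicate 3, among them Prnp, Eldr, Mpst, Ska3 and Vapb, had adjusted p of 0.041 to 0.049 with all libraries. Mpst, a sulfur transferase, was at 32.9, 33.5 and 27.7 CPM against 34.7, 37 and 43.3 CPM (0.29), and its difference was 0.08 and 0.14 in pairs 1 and 2 and 0.64 in pair 3. The shift of replicate 3 also ran downward: Cables1, a CDK adaptor, was at 30, 31.6 and 13.4 CPM against 40, 38.3 and 18.5 CPM, and Pou2af1, a lymphocyte coactivator, at 15.8, 14.6 and 6.44 CPM against 8.62, 8.63 and 4.27 CPM. Both differed the same way in every pair, were not called with all libraries (adjusted p = 0.45 and 0.1) and were called with the block (5.1e-04 and 2.4e-05), with 5.1e-04 to 0.9 and 1.1e-05 to 0.34 over 20 alternatives each.

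Windows of 2 hypoxia genes are shown because these promoters belong to the genes that set replicate 3 apart. They were chosen as the listed genes with the largest shift among those with 1 start and a match to the core below. That each window holds a match was therefore fixed by the choice. P4ha2, a collagen prolyl hydroxylase, was at 0.485, 0.483 and 18.9 CPM against 0.388, 0.922 and 27.9 CPM, and Bnip3, a mitophagy receptor, at 6.74, 6.64 and 45.9 CPM against 8.53, 9.22 and 64.2 CPM. Neither was called with all libraries (adjusted p = 0.8 and 0.73), and both were with the block (0.042 and 0.0011, with 0.0054 to 0.99 and 1.6e-04 to 0.97 over their alternatives). The windows lie at chr11:54100751-54100870 (plus strand) and chr7:138909589-138909708 (minus strand) on GRCm38.p6, from RefSeq, with capitals for the hypoxia response element core ACGTG on either strand, a motif chosen after seeing the data.
P4ha2: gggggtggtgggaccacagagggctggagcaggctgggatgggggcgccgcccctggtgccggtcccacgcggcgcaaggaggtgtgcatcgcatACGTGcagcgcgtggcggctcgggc
Bnip3: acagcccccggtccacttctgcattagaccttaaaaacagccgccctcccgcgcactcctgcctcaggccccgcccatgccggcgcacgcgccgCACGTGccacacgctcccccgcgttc
In Bnip3 the capitals hold overlapping matches on both strands. The core stood in 14 of 20 hypoxia promoters (70%) and 11 of 22 glycolysis promoters (50%), against 18.5% of all promoters and 25% of those of tested genes.

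Among the TGF-beta response genes were some of the lowest fold changes of the named genes. Of 21 tested members 8 fell and 2 rose, with a median of -0.09. Itgae, the alpha chain of the integrin that binds E-cadherin, was at 260, 233 and 255 CPM with IL-2 and at 63.8, 66.8 and 76 CPM with 80%TCM (-1.86 ± 0.09, adjusted p = 2.1e-07). Pmepa1, a feedback inhibitor of SMAD signalling, was at 26.5, 27.9 and 25.9 CPM against 11.8, 11.3 and 15.9 CPM (-1.04 ± 0.12, adjusted p = 1.8e-04). Skil, a SMAD corepressor, was at 137, 129 and 138 CPM against 99.2, 89.1 and 105 CPM (-0.47 ± 0.07, adjusted p = 7.7e-04). The groups did not overlap in any of these.

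The receptor gene Tgfbr1 also fell, from 45.4, 43.2 and 48.3 CPM to 33.9, 30.9 and 31.5 CPM (-0.51). The members that rose were Lrrc32, which holds latent TGF-beta on the cell surface (0.64), and Runx1, a transcription factor, from 12.9, 14.5 and 13.1 CPM to 19.2, 25 and 16.1 CPM (0.58). Tgfb1 itself was not called, at 151, 168 and 149 CPM against 140, 143 and 155 CPM (adjusted p = 0.37). Without replicate 3, 4 members were called higher and 12 lower, and with the block 4 and 10.

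Among integrin and adhesion genes 7 of 27 tested members fell and 1 rose (median -0.01). Without replicate 3 the counts were 8 lower and 6 higher, and with the block 9 and 4. Shares of all genes called lower and higher were 7.82% and 6.73%, then 12.4% and 12.3%, then 14% each way. Rap1gap2, which switches off the adhesion GTPase Rap1, had the lowest log2 fold change among the named genes, with 11.4, 9.87 and 13.2 CPM against 1.94, 1.29 and 2.11 CPM (-2.70 ± 0.19, adjusted p = 4.2e-06). Rasgrp2, which switches Rap1 on, fell from 271, 268 and 228 CPM to 194, 183 and 136 CPM (-0.58). Itgb3, an integrin chain also abundant in platelets, fell from 191, 207 and 228 CPM to 151, 139 and 171 CPM (-0.44). The platelet markers fell in the same libraries: 11 of 13 tested fell and 0 rose, with a median of -1.23, and their summed level did not overlap between the groups. The part of platelet RNA in the fall of these adhesion genes was not tested.

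Among the 15 lowest of the called genes with at least 10 CPM and no overlap were further genes known from platelets and vessel walls. Vwf, von Willebrand factor, was at 20.9, 26.9 and 21 CPM against 9.64, 7.93 and 9.57 CPM (-1.35), and Thbs1, thrombospondin, at 40.9, 47.8 and 43.4 CPM against 12.9, 17.4 and 16.6 CPM (-1.49). The megakaryocyte chemokine gene Pf4 was at 30.9, 38.3 and 27.1 CPM against 9.45, 11.5 and 14.8 CPM (-1.43), while the platelet receptor gene Gp1bb was at 0 in all 6 libraries. In pair 3 the median fall of the list was 0.83 log2 units, against 1.44 and 1.21 in pairs 1 and 2.

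Among chemokine receptors more members fell than rose. Of 21 tested genes of homing 6 fell and 1 rose, with a median of -0.13, and without replicate 3 the counts were 7 lower and 3 higher, with the block 10 and 3. Cxcr6, the receptor for CXCL16, was at 44.4, 39.5 and 52.6 CPM against 22.7, 25.3 and 22.1 CPM (-0.96 ± 0.09, adjusted p = 6.3e-05). Ccr2, an inflammatory homing receptor, was at 15.6, 14 and 14.7 CPM against 9.21, 8.23 and 5.06 CPM (-0.98 ± 0.16, adjusted p = 0.0015). Cxcr5, which guides cells to B cell follicles, rose from 7.45, 6.44 and 4.08 CPM to 15.7, 17.8 and 10.1 CPM (1.28 ± 0.25, adjusted p = 0.0055), with replicate 3 lowest in both groups. Its exons overlap those of Bcl9l on the opposite strand (mean 90.2 CPM, against 10.3 CPM for Cxcr5), so its counts may include reads of Bcl9l. The lymph node receptor gene Ccr7 was not called, at 342 to 417 against 363 to 408 CPM.

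**Figure D5:**
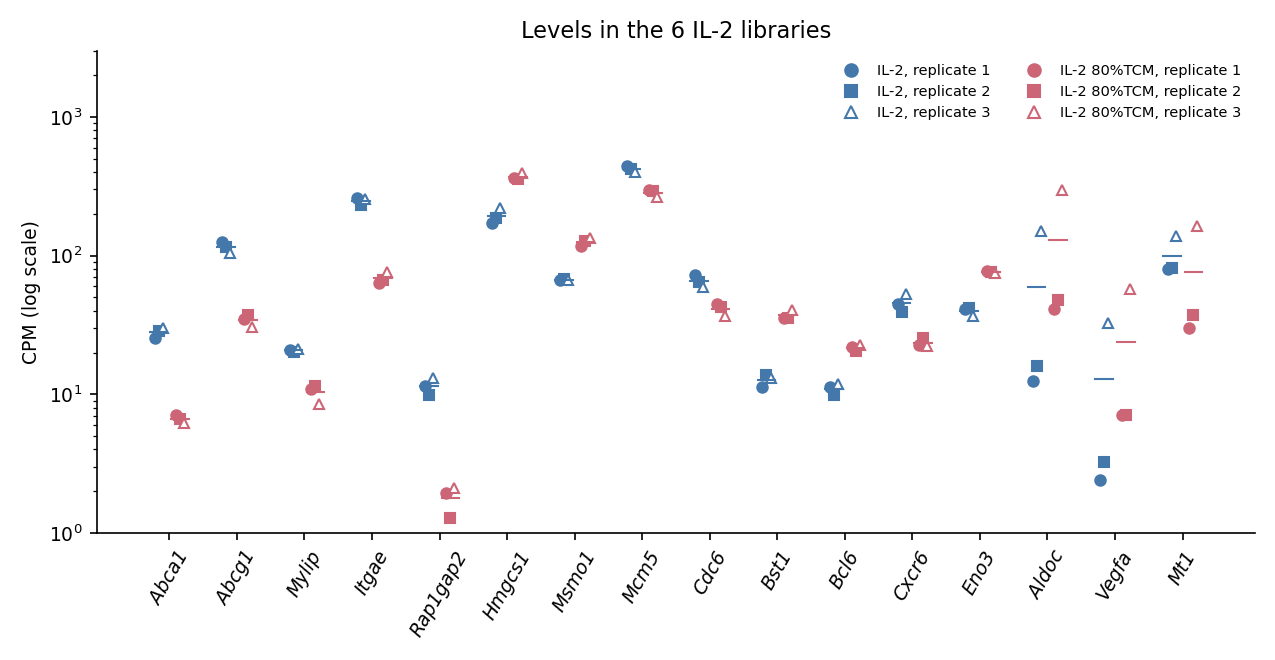
Level of 16 genes in CPM (y axis, log scale) in each of the 3 IL-2 and 3 IL-2 80%TCM libraries, with replicate 3 as open triangles and horizontal lines at group means. Abca1, Abcg1, Itgae and Rap1gap2 separate by group, while in Aldoc and Vegfa replicate 3 lies far above the other libraries of both groups.

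Of 36 tested transcription factors of T cell fate, 2 rose and 4 fell (14.5% of all genes were called), with a median of -0.04, and with the block 3 were called higher and 10 lower. Bcl6, a transcriptional repressor that promotes follicular and memory programmes, was at 11.3, 9.87 and 11.9 CPM with IL-2 and at 22, 20.6 and 22.5 CPM with 80%TCM (0.98 ± 0.08, adjusted p = 1.9e-05). Maf fell from 8.02, 8.9 and 8.44 CPM to 4.17, 4.8 and 3.59 CPM (-1.01 ± 0.13, adjusted p = 3.8e-04), and Foxo1 fell from 174, 170 and 194 CPM to 151, 158 and 144 CPM (-0.25). Tcf7, Tbx21, Eomes and Tox, factors of memory, effector and exhausted cells, were not called, with log2 fold changes of 0.13, 0.10, 0.06 and 0.29. Tcf7 was higher with 80%TCM in pairs 1 and 2 (0.15 and 0.26) and lower in pair 3 (-0.09), and it was called without replicate 3 (adjusted p = 0.0061) but not with the block (0.17), with 0.0061 to 1 over its 20 alternatives.

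Cytokine signalling genes changed in both directions. Of 22 JAK, STAT, SOCS and PIM genes 5 rose and 1 fell (median 0.09), and of 27 cytokine receptor genes 6 rose and 3 fell (median 0.03). With the block the counts were 9 and 2 for the first list and 11 and 7 for the second. All genes stood at 6.73% higher and 7.82% lower in the main fit, and at 14% each way with the block. Socs1, a feedback inhibitor of cytokine receptors, was at 32.4, 34.3 and 28.1 CPM against 48.8, 50.7 and 45.5 CPM (0.61 ± 0.10, adjusted p = 0.0015). Il4ra, the IL-4 receptor chain, was at 293, 315 and 268 CPM against 403, 422 and 339 CPM (0.41 ± 0.08, adjusted p = 0.0062). Il12rb2, the signalling chain of the IL-12 receptor, rose from 111, 116 and 172 CPM to 172, 173 and 260 CPM (0.60), with replicate 3 highest in both groups, so the groups touched. Its exons overlap those of Serbp1 on the opposite strand (mean 716 CPM), so its counts may include reads of Serbp1. Il2ra, the high-affinity chain of the receptor for the added cytokine, was at 468, 494 and 518 CPM against 469, 496 and 547 CPM (0.03 ± 0.06, adjusted p = 0.79).

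Receptors that restrain or costimulate T cells changed in both directions. Of 22 inhibitory receptor genes 4 rose and 2 fell (median 0.21). Of 22 costimulatory and TNF receptor genes 4 rose and 1 fell (median 0.15). Over all genes tested 6.73% were called higher and 7.82% lower. Ctla4, which competes for B7 ligands, rose from 253, 239 and 247 CPM to 376, 394 and 327 CPM (0.57), and Fas, a death receptor, from 28.8, 25.1 and 33.4 CPM to 45.4, 45 and 49.4 CPM (0.68). Ctla4 also belongs to the markers of CD4+ and regulatory T cells, of which 5 of 9 tested rose, Cd4 by 1.66 and Izumo1r by 1.02 on the log2 scale. The summed level of that list was 831 to 868 CPM with IL-2 and 969 to 1021 CPM with 80%TCM, Foxp3 was not called, and the part of such cells in the rise of Ctla4 and of Cxcr5, also on the list, was not tested. Lair1, a collagen receptor, fell from 26.8, 28.7 and 21.8 CPM to 15.1, 15.7 and 10.8 CPM (-0.90). Without replicate 3, 11 costimulatory genes were called higher and 3 lower, and 9 and 2 with the block. The block also called 8 inhibitory receptor genes higher and 5 lower. Shares of all genes were 12.3% higher and 12.4% lower without replicate 3, and 14% each way with the block.

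Lag3, Pdcd1 and Havcr2 were higher in replicate 3 and were not called. Lag3 was at 109, 114 and 194 CPM against 139, 148 and 277 CPM, higher with 80%TCM in every pair (0.44 ± 0.24, adjusted p = 0.26, with 2.2e-08 to 0.84 over its 20 alternatives and 3.2e-06 with the block). Pdcd1 was at 14.5, 14.5 and 21.9 CPM against 15.1, 16.9 and 25.8 CPM (0.19 ± 0.18, adjusted p = 0.55). Havcr2 was at 11.9, 12.2 and 24.8 CPM against 9.84, 10.4 and 17.8 CPM, lower in every pair (-0.36 ± 0.27, adjusted p = 0.43, with 0.012 to 0.87 over its 20 alternatives, the lowest with the block).

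Granule and killing genes changed in both directions. Of 22 tested 3 rose and 4 fell, with a median of -0.03, and with the block 5 were called higher and 6 lower. All genes stood at 6.73% higher and 7.82% lower, and at 14% each way with the block. Serpinb6b, a granzyme inhibitor family gene, was at 52, 54.3 and 68.1 CPM against 103, 119 and 160 CPM (1.13 ± 0.13, adjusted p = 2.0e-04), and Serpinb9, an inhibitor of granzyme B, at 36, 36.3 and 38.6 CPM against 54.3, 59.3 and 80 CPM (0.80 ± 0.11, adjusted p = 4.8e-04). Fasl, a death ligand, rose from 17.8, 17.5 and 22.5 CPM to 24.2, 24.6 and 30.1 CPM (0.45). Gzmc, a granzyme, fell from 72.2, 75.8 and 72.5 CPM to 33.2, 42.5 and 45.8 CPM (-0.86). Prf1, perforin, and Gzmb, granzyme B, were not called with all libraries (adjusted p = 0.1 and 0.27). Prf1 was at 16.7, 17.9 and 33.7 CPM against 25.3, 28.7 and 71.7 CPM and Gzmb at 923, 959 and 1338 CPM against 1075, 1146 and 1880 CPM, both higher in every pair and called with the block (6.3e-07 and 0.0066, with 3.6e-23 to 0.43 and 5.9e-06 to 0.82 over 20 alternatives each).

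Of 22 tested cytokine and chemokine genes 1 rose and 4 fell, with a median of -0.19, against 14.5% of all genes called, and with the block 7 were called lower. Fgl2, a secreted fibrinogen-like protein, fell from 18.3, 19.9 and 30.5 CPM to 4.31, 6.12 and 7.78 CPM (-1.90 ± 0.20, adjusted p = 1.0e-04), and Ltb, lymphotoxin beta, from 390, 400 and 323 CPM to 285, 291 and 257 CPM (-0.42). Ifng was at 1.07 to 2.21 CPM against 1.36 to 1.91 CPM and Tnf at 4.13 to 7.01 CPM against 4.94 to 6.23 CPM, and neither was called.

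Interferon-stimulated genes moved both ways: of 49 tested 6 rose and 7 fell, with a median of -0.03. Irf7, a regulator of type I interferon, was at 47.3, 48.2 and 51.4 CPM against 32.6, 32.7 and 31 CPM (-0.61 ± 0.07, adjusted p = 1.5e-04). The exons of Irf7 overlap those of Phrf1 on the opposite strand (mean 122 CPM), so its counts may include reads of Phrf1. Gbp2, a guanylate-binding protein, fell from 323, 314 and 415 CPM to 257, 245 and 233 CPM (-0.52). Igtp, an interferon-induced GTPase, rose from 477, 415 and 449 CPM to 629, 639 and 564 CPM (0.45), and its exons overlap those of Irgm2, which also rose. Without replicate 3, 15 were called higher and 8 lower, and with the block 13 and 12. Shares of all genes called higher and lower were 6.73% and 7.82% in the main fit. They were 12.3% and 12.4% without replicate 3, and 14% each way with the block.

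Early response genes were also mixed, with 5 higher and 6 lower of 26 tested AP-1, EGR and NR4A genes (median 0.13). With the block 9 were higher and 6 lower. All genes stood at 6.73% higher and 7.82% lower, and at 14% each way with the block. Nr4a2, a nuclear receptor induced by T cell receptor signals, rose from 6.44, 6.89 and 6.97 CPM to 11.9, 11.6 and 12.2 CPM (0.81), while Dusp2, a MAP kinase phosphatase, fell from 122, 121 and 103 CPM to 71.7, 78.2 and 91.4 CPM (-0.52). Stress programmes are read against the 14.5% of all genes that were called, and their block counts against 27.9%, 14% in each direction. Of 22 NRF2 targets and thiol genes 4 fell and 0 rose (median -0.12), with Srxn1, sulfiredoxin, at 6.08, 6.48 and 7.59 CPM against 3.29, 3.39 and 3.71 CPM (-0.95). In the unfolded protein response 1 of 24 genes rose and 3 fell, of 17 heat shock chaperones 2 fell, and of 31 ATF4 and tRNA synthetase genes 3 fell and 1 rose. With the block 7 NRF2 genes, 9 unfolded protein response genes, 6 chaperones and 5 ATF4 genes were called lower, and 7 ATF4 genes were called higher. Of 36 nuclear oxidative phosphorylation genes 1 rose and 1 fell, and with the block 4 were called in each direction. Of 13 mitochondrially encoded genes edgeR called 0, with 2 at an unadjusted p under 0.05, DESeq2 called 1 and limma 0, and the block gave 3 higher and 2 lower. Of 19 NF-kappaB genes 2 rose and 3 fell, of 20 BCL2 family genes 2 rose and 2 fell, and of 18 amino acid transporters 1 fell. With the block 6 BCL2 family genes were called higher and 3 lower.

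Several of the named genes that rose have varied roles. Bst1, an ectoenzyme that uses NAD, was at 11.2, 13.7 and 13.1 CPM with IL-2 and at 35.3, 35.5 and 40.6 CPM with 80%TCM (1.55 ± 0.08, adjusted p = 2.8e-07), and its relative Cd38 rose from 7.89, 7.53 and 12.9 CPM to 15.3, 17.7 and 27.4 CPM (1.10). Cd81, a tetraspanin, was at 8.55, 8.13 and 15.8 CPM against 21.4, 20.7 and 37.3 CPM (1.29 ± 0.26, adjusted p = 0.006).

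Tspoap1 rested most on replicate 3 among the 15 highest genes, at 19.3, 24.6 and 24.6 CPM against 34.9, 33.2 and 90.7 CPM, with a log2 fold change of 1.21 with all libraries and 0.63 without replicate 3. Tg, thyroglobulin, was at 20.5, 23 and 32.5 CPM against 58, 60.5 and 74 CPM (1.34). The Tg gene spans Sla, a T cell adaptor gene on the other strand, which was at 205, 204 and 150 CPM against 282, 286 and 138 CPM and was not called (adjusted p = 0.31, with 1.9e-08 to 0.66 over its 20 alternatives and 0.0065 with the block). Among the 15 lowest of the called genes with at least 10 CPM and no overlap, Crmp1 was at 29.1, 24.6 and 29.5 CPM against 9.3, 11.6 and 11.9 CPM (-1.34), Emp1, a membrane protein, at 14.8, 14.6 and 22.7 CPM against 5.86, 6.42 and 5.14 CPM (-1.58), and Timp3, an inhibitor of metalloproteinases, at 12.3, 15 and 12.2 CPM against 3.97, 4.43 and 5.34 CPM (-1.52).

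The effect of 80%TCM in IL-2 was set against that in IL-12 with the interaction term of the same model. It differed for 251 genes (1.58% of those tested), 102 of them called in IL-2, and this count was 2105 without replicate 3 of both IL-2 groups, 1668 with the block within IL-2 and 105 (without IL-12 80%TCM replicate 2) to 1164 (without IL-2 80%TCM replicate 3) with 1 library left out. Of the 2313 genes called in IL-2, 1506 were called in the same direction in IL-12 and 37 in the opposite direction. Of the export and LXR genes, Abca1, Abcg1, Mylip and Arl4c had a lower log2 fold change in IL-2 than in IL-12, 4 of 15 tested: the log2 fold change of Abca1 was -2.08 in IL-2 and -0.95 in IL-12 (difference -1.12 ± 0.12, adjusted p = 7.0e-04), and Arl4c fell in IL-2 and rose in IL-12 (-0.52 and 0.31, difference -0.84 ± 0.08, adjusted p = 3.6e-04). The cholesterol synthesis list had medians of 0.57 in IL-2 and 0.89 in IL-12, and Acat2, which makes acetoacetyl-CoA, rose less in IL-2 (difference -0.57 ± 0.09, adjusted p = 0.0092). Cxcr6 fell in IL-2 and was not called in IL-12 (-0.96 and 0.16, difference -1.12 ± 0.13, adjusted p = 9.1e-04). Bcl6 rose more in IL-2 (0.98 and 0.29, difference 0.68 ± 0.11, adjusted p = 0.0097).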

How the data were processed

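Total RNA of 12 libraries was sequenced, 3 for each cytokine (IL-2 or IL-12) with and without 80%TCM, with a directional kit per the labels. The extraction text in the labels speaks of livers of bortezomib-treated mice, which no sample label names. The authors deposited a table of raw gene counts and, per library, a signal equal to those counts on TMM-scaled library sizes, as CPM. STAR 2.7.7a and edgeR are named per the submitters' processing notes. The annotation and strand setting are not given in the sources used here, and the notes name a human build although the identifiers are those of mouse. Further genes named here, among them Ccne2 and Srebf1, also share exons with expressed genes on the opposite strand.

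Counts were fitted with edgeR 4.0.16 in R 4.3.3 (quasi-likelihood F test, TMM, filterByExpr with minimum count 10 and minimum total 15), with 1 mean per group over all 12 libraries, so that the IL-12 libraries share the estimate of the spread. The contrasts were IL-2 80%TCM minus IL-2 and its difference from the same contrast in IL-12. Of 55487 genes 15897 were tested, p-values were adjusted by Benjamini-Hochberg over all of them, and the threshold was 0.05. The common biological coefficient of variation was 0.104. Depth was 19500568 to 26007717 counts, except 49638920 and 42349121 in IL-12 replicates 1 and 2. Standard errors of log2 fold changes were taken from the F statistic. DESeq2 1.42.0 and limma 3.58.1 served as alternatives, beside other scalings, filters, pseudocounts, left-out libraries and a block.

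Residuals of same-numbered libraries between the IL-2 groups had correlations of 0.28, 0.25 and 0.57, all above 0.1. The main fit nevertheless held no term for the replicate number, which entered only as the block of the alternatives. Crossed correlations were 0.3 and 0.27 between replicates 1 and 2 but -0.36 to -0.41 when 1 of them was replicate 3, so only replicate 3 is told apart by this check.

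The comparison and the 42 gene lists (967 symbols with repeats, 1 unmatched) were chosen with earlier results of these data known. Named genes were the 15 highest and 15 lowest log2 fold changes among called genes with at least 10 CPM and no overlap, up to 3 members per list and direction with the smallest p, anchor genes of T cell biology, the genes most shifted in replicate 3, those whose call depended most on replicate 3, and those among the highest and lowest that differed most from IL-12. Some are left out for length or are not reported here, and list members outside this rule were chosen after their values were seen. On simulated counts for the IL-2 contrast over 15897 genes, 27, 39, 43 and 47 of 50 genes changed 1.5-, 2-, 4- and 8-fold were recovered, and 5 unchanged genes were called. The simulated libraries held no shift of replicate 3 shared by the groups, so these counts do not describe data with such a shift. Promoters were searched in a RefSeq table of GRCm38.p6.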

Additional observations from a re-analysis of the deposited data

Results flagged for a closer look

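Among 323 genes named by the rule or called in the lists, 31 reported here had an effect of 80%TCM that differed between IL-2 and IL-12. The test was edgeR's interaction test, adjusted by Benjamini-Hochberg over all 15897 genes, where 1.58% of all genes differed. Of the 323 genes 281 had been called in IL-2, so all genes are not a like base, and of all 2313 genes called in IL-2 102 differed. The values below are the log2 fold change in IL-2 minus that in IL-12, which was lower in IL-2 for 24 genes and higher for 7. Of the 31, 15 passed in every alternative that could be run for them, and 14 had opposite signs in the cytokines. The fewest alternatives were passed by Rasgrp1 (5 of 18) and by Smad7, Acadl and Lilrb4a (7 of 18 each).

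Genes of cholesterol export and LXR differed negatively: Abca1 by -1.12, Abcg1 by -0.74, Mylip by -0.91 and Arl4c by -0.84. Of the 25 cholesterol synthesis genes, those that differed rose in both cytokines and less in IL-2: Mvd by -0.61, Pmvk by -0.59 and Acat2 by -0.57. Mvd passed in 8 of its 18 alternatives, Pmvk in 10 and Acat2 in all 18. The fatty acid oxidation gene Acadl differed by -0.38.

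Interferon-related and signalling genes with lower values in IL-2 were Oasl2 by -1.57, Irf7 by -0.67, Nfkbiz by -0.58 and Smad7 by -0.42. Oasl2, an antiviral gene, was at 3.44, 4.03 and 3.24 CPM with IL-2 and 2.91, 2.32 and 1.6 CPM with 80%TCM, with a log2 fold change of -0.66 in IL-2 and 0.91 in IL-12. P2ry14, a receptor for UDP-glucose, differed by -1.36 and fell in IL-2 (-0.57) where it rose in IL-12 (0.79). Receptors and surface genes that differed were Cxcr6 by -1.12, Lilrb4a by -0.71, Pdcd1lg2 by -0.93 and Emp1 by -1.18. The secreted factor gene Fgl2 differed by -1.55.

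Among transcription factors, Maf by -1.01 and Foxo1 by -0.50 differed negatively and Bcl6 by 0.68 positively. Adhesion genes differed as Itgb3 by -0.93, Sipa1l1 by -0.51 and Rasgrp1 by -0.27 on the negative side and Rasgrp2 by 0.76 and Rap1gap2 by 1.81 on the positive side, where the fall was larger in IL-12. The platelet gene Gp1ba differed by -1.05. The remaining positive differences were Bst1 by 0.49, Eno3 by 0.57, Bbc3 by 0.93 and Cd44 by 0.94. Cd44, an activation marker, was not called in IL-2 (0.08) and fell in IL-12 (-0.86).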

How the results depend on the processing

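DESeq2 size factors, upper-quartile scaling, no filter, a filter of 5 CPM, DESeq2 and limma left between 2009 and 2841 genes called, within 1.5 times of 2313. With the 2 IL-2 groups alone 587 were called, 341 when log2 fold changes also had to reach 1 in size, and without replicate 3 of both groups 3936. Leaving out 1 library at a time gave 1292 (without IL-2 replicate 1) to 2938 (without IL-2 replicate 3). The replicate block within IL-2 gave 4442 calls, and the block changed no other call printed in the report than those given there with it, apart from Cd3e and Ighm. The share of called genes that were higher lay from 42.6 to 53.4%, against 46.3%.

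For the difference between cytokines the alternatives were chosen after seeing the data. The 251 genes became 779 with no filter, 1668 with the replicate block within IL-2 and 2105 without replicate 3 of both groups, while leaving out 1 library gave 105 (without IL-12 80%TCM replicate 2) to 1164 (without IL-2 80%TCM replicate 3). The cause was not tested. Of 323 genes examined one by one 281 were called, 118 of them in every alternative and 65 in all but 1, and no called gene turned its direction. The erythroid list had no tested gene left at 5 CPM, so it has no median there. Depth limits the genes near 1 CPM, which rest on about 20 counts per library.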

Other observations

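Some values outside the comparisons above were chosen after they were seen. Cdh1, which encodes E-cadherin, the ligand of the integrin made with the Itgae product, was at 4.85, 4.39 and 18.9 CPM with IL-2 and at 0.775, 0.369 and 7.74 CPM with 80%TCM. It was lower in every pair but not called with all libraries (log2 fold change -1.64 ± 0.76, adjusted p = 0.17 in edgeR, 1.7e-06 with the block and 1.5e-15 to 0.59 over 18 alternatives), and replicate 3 was highest in both groups. Col1a1, a collagen gene of stromal cells, was at 11 CPM in IL-2 80%TCM replicate 2 and at 0.97 to 1.55 CPM in the other 5 libraries, and Col1a2 was at 3.39 CPM in that library and below 0.29 CPM in the others. Col1a1 was not called (adjusted p = 0.079, 0.0078 with the block and 6.8e-12 to 1 over 18 alternatives).

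Of 9 tested markers of CD4+ and regulatory T cells 5 rose and 0 fell (median 0.57), while 5 were called higher and 1 lower without replicate 3, and 6 and 1 with the block. Cd4 was at 1.23, 1.25 and 1.15 CPM against 2.76, 4.13 and 4.55 CPM (1.66 ± 0.24, adjusted p = 7.6e-04 in edgeR), and Izumo1r, the folate receptor 4 gene, rose from 9.52, 7.29 and 8.7 CPM to 14.5, 17 and 20 CPM (1.02). Foxp3 was at 1.63, 1.33 and 1.86 CPM against 1.11, 0.848 and 1.48 CPM and was not called. Of 9 natural killer cell markers edgeR called 0, with 2 at an unadjusted p under 0.05, and DESeq2 called 0 and limma 2. Of 14 killer cell lectin-like receptor genes 2 rose and 1 fell (median 0.29, and 6 higher and 1 lower with the block), with Klrk1, which encodes NKG2D, at 245, 247 and 251 CPM against 312, 344 and 258 CPM (0.30).

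Among the CD8, CD3 and T cell receptor signalling genes 4 of 27 rose and 1 fell (median 0.11), and with the block 11 were called higher and 5 lower. For all lists of this paragraph, the shares of all genes were 6.73% higher and 7.82% lower, and 14% each way with the block. Themis, a receptor signalling adaptor, rose from 278, 274 and 360 CPM to 346, 373 and 402 CPM (0.30), and Nfatc1, a transcription factor downstream of calcium, fell from 166, 159 and 170 CPM to 141, 144 and 142 CPM (-0.21). Of 17 purinergic and NAD ectoenzyme genes 4 rose and 4 fell (median 0.20), with a median of 0.00 without replicate 3 and 6 higher and 4 lower with the block. Of 8 tested B cell markers 1 rose and 1 fell, and of 7 tested myeloid markers 2 fell.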
